A study of Mus musculus with 37 samples.

Results

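The values of 8 genes of mouse chromosome 5, the chromosome that carries Wfs1, were examined in temporal lobe RNA of wild-type and Wfs1-deficient mice of 2 strains. They are Abhd1, Drc1, Cox18, Galnt11, Lgi2, Sod3, Cfap69 and Ppp1cb, 8 of the 18193 genes with a probe set of their own on the array. They were chosen by a difference in signal on their brightest probe set between C57 KO and C57 WT in a fit of these same arrays, so the C57 difference is described here and not tested. The genes had 16 probe sets among 34945 with a single gene symbol. Of the 16, 12 reached the filter, a mean log2 signal of 3.6 in at least 1 group, and were among the 23321 probe sets tested. The remaining 4, which belong to Sod3, Galnt11 and Cfap69, lay under the filter in every group.

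The 37 arrays hold RNA from dissected, frozen temporal lobes of 4 groups: 9 arrays of C57 mice with wild-type Wfs1 (C57 WT), 9 of C57 mice lacking Wfs1 (C57 KO), 9 of 129 mice with wild-type Wfs1 (129 WT) and 10 of 129 mice lacking it (129 KO). The labels write the strains as C57 and 129SV and the design text as C57B6 and 129S6, and age, sex, treatment and litter are not given in the sources used here. Neither the strain in which the Wfs1 mutation was made nor the number of crosses behind each line is given either. Nothing in the labels states that every array is a different animal, so the errors below measure the spread between arrays.

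Wfs1 encodes wolframin, a membrane protein of the endoplasmic reticulum whose loss causes Wolfram syndrome. A mutation moved from 1 strain to another by crossing brings the chromosome around it along, so mice selected for the mutation can carry the donor strain's alleles of linked genes. In that setting the loss of the gene and the linked alleles go together in every KO animal, and the KO and WT groups of C57 alone cannot tell them apart. The 8 genes do unrelated work. Drc1 and Cfap69 build the axoneme of motile cilia and flagella, Cox18 inserts a subunit of cytochrome oxidase into the inner mitochondrial membrane, Galnt11 starts O-linked glycosylation in the Golgi, Lgi2 is a secreted neuronal protein, Sod3 removes superoxide outside cells, and Ppp1cb is a catalytic subunit of protein phosphatase 1. Abhd1 is named for the alpha/beta hydrolase fold, and RefSeq lists the mouse gene as a transcribed pseudogene in GRCm38.p6, the C57BL/6J reference.

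On the genotype check, the mean Wfs1 log2 signal (SD) was 9.32 (0.17) for the 9 C57 WT arrays, 3.03 (0.26) for the 9 C57 KO arrays, 9.33 (0.12) for the 9 129 WT arrays and 3.11 (0.28) for the 10 129 KO arrays, with no overlap between genotypes. Array medians ran from 4.30 to 4.36, and no 2 of the 37 arrays held identical values. RNA integrity, read as the 3' minus 5' signal of the actin controls, had group medians from 1.19 to 1.25, and its highest value, 2.76, was in a 129 WT array. In tissue pieces, fewer cells of a type and less RNA per cell cannot be told apart. Markers of the labelled tissue, cortex and hippocampus of the temporal lobe, were present with 8 of 12 genes tested and a summed log2 signal of 12.28 to 12.55 in C57 WT and 12.08 to 12.45 in C57 KO. Oligodendrocyte markers had a lower mean in C57 KO for 8 of 9 tested genes (median -0.14), with 0 called in limma. Of the 14 striatum markers 12 were tested, and 12 of these 12 had a lower mean in C57 KO, with a median difference of -0.45 on the log2 scale in C57 and -0.16 in 129, and 0 called in limma in either strain. Its summed log2 signal lay between 12.14 and 13.09 in C57 WT and between 11.95 and 12.76 in C57 KO. Adora2a, a receptor gene of striatal neurons, was not among the tested genes, and the part of these markers in the values of the 8 genes was not tested.

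In the C57 groups, 8 of the 12 tested probe sets of these genes passed a limma adjusted p under 0.05, 5 higher and 3 lower in KO, against 20 of 23321 probe sets overall (0.0858%; 0.0472% higher and 0.0386% lower), a count that the choice of the genes fixes. The 129 arrays entered the choice through the shared estimate of spread, the filter and the pick of the brightest probe set. Their own KO minus WT difference was not a criterion. In 129, 0 of the 12 passed in limma, against 1 of 23321 overall (0.00429%), which was Wfs1. At an unadjusted p under 0.05, 0 of the 12 passed in 129, against 510 of 23321 (2.19%). On the brightest probe set of each gene, and on a further Ppp1cb probe set, the C57 KO mean differed from that of C57 WT by at least 0.33 in size.

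**Figure D1:**
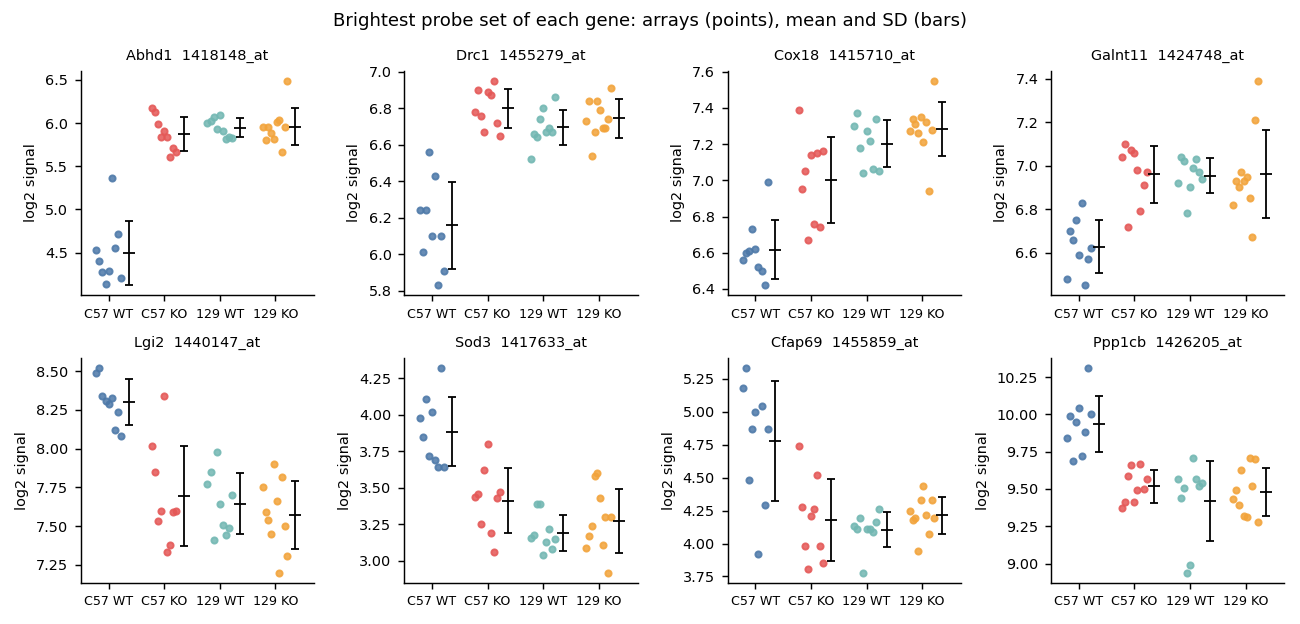
Log2 signal of the brightest probe set of each of the 8 genes, 1 point per array in array number order within each group, with the group mean and SD as bars. The C57 WT mean lies below the other 3 for Abhd1, Drc1, Cox18 and Galnt11 and above them for Lgi2, Sod3, Cfap69 and Ppp1cb.

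Abhd1 had the largest difference of the set. Its log2 signal (probe set 1418148_at) ran from 4.14 through a median of 4.40 to 5.37 in C57 WT, and from 5.61 through 5.84 to 6.17 in C57 KO. In 129 it ran from 5.82 through 5.93 to 6.10 in WT and from 5.67 through 5.96 to 6.49 in KO. The C57 WT arrays therefore lay below every other array, and the other 3 groups overlapped. The mean rose from 4.50 ± 0.37 to 5.88 ± 0.20 (SD, n = 9 and 9), a difference of 1.38 (SE 0.11) or 2.60-fold in signal. In 129 the means were 5.95 ± 0.11 (SD, n = 9) and 5.96 ± 0.22 (SD, n = 10), and KO differed by 0.01 (95% confidence interval -0.21 to 0.23, limma adjusted p = 1). 129 WT exceeded C57 WT by 1.45 (SE 0.11) and C57 KO by 0.07 (SE 0.11), and 8 of the 9 C57 KO arrays fell within the 129 range while 0 of the 9 C57 WT arrays did.

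Both cilium genes were among the 8, with opposite signs. Drc1 encodes a subunit of the dynein regulatory complex, which ties neighbouring doublet microtubules together and controls the beat of the axoneme. Its signal (1455279_at) ran from 5.83 through 6.10 to 6.56 in C57 WT and from 6.65 through 6.78 to 6.95 in C57 KO, with no overlap. It ran from 6.52 through 6.67 to 6.86 in 129 WT and from 6.54 through 6.74 to 6.91 in 129 KO. Only the C57 WT arrays were low, apart from 1 of the 9 that reached the 129 range. Drc1 was 0.64 higher in C57 KO (SE 0.07), 1.56-fold, and 129 KO differed from 129 WT by 0.05 (95% confidence interval -0.09 to 0.19, limma adjusted p = 1).

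Cfap69, a protein of the axoneme's central apparatus, went the other way on its brightest probe set (1455859_at). The signal ran from 3.92 through 4.87 to 5.33 in C57 WT and from 3.81 through 4.21 to 4.74 in C57 KO. It ran from 3.78 through 4.11 to 4.26 in 129 WT and from 3.94 through 4.21 to 4.44 in 129 KO. Here the C57 groups overlapped, 2 of the 9 C57 WT arrays lay within the 129 range, and C57 WT had the widest spread (SD 0.45 against 0.31 in C57 KO, 0.13 in 129 WT and 0.14 in 129 KO). The C57 difference was -0.59 (SE 0.13), and 129 KO differed from 129 WT by 0.11 (95% confidence interval -0.15 to 0.37, limma adjusted p = 1). With every probe set in the fit Cfap69 is not among the 8 called in C57, and it is called under 3 of 13 alternatives. These are 1 probe set per gene, the fit behind the choice, and the mean of probe sets per gene. The third has lower and higher array title numbers as a block in the fit, where 9 are called. Cfap69 is not called with the C57 groups alone. Its other probe sets, 1440796_at and 1457697_at, lay under the filter, with group means from 3.06 to 3.23 and from 2.72 to 2.79, and C57 differences of 0.08 (SE 0.08) and -0.03 (SE 0.11).

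The stretches before the start sites of both cilium genes are shown because the genes share a role in the axoneme but not a direction. They are 250 bases of RefSeq sequence on GRCm38.p6, which is C57BL/6J sequence, and the 129 sequence was not analysed here. Capitals mark TAGCAAC, a part of the X-box to which RFX factors bind at cilium genes, searched on both strands.
Drc1 (chr5:30281143-30281392, plus strand): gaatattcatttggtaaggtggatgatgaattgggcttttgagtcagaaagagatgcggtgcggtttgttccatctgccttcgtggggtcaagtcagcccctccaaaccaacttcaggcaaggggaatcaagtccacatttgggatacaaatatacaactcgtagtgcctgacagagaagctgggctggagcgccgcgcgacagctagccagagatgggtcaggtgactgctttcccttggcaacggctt
Cfap69 (chr5:5664233-5664482, minus strand): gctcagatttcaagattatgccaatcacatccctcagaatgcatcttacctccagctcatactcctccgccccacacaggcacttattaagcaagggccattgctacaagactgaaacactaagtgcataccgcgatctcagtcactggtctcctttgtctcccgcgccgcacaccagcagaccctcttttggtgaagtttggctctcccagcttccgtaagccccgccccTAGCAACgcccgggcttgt
The search covered the whole RefSeq entry of 300 bases, which reaches 50 bases past the start. It found TAGCAAC in 3.66% of 32851 entries. Cfap69 held 2 matches, 1 of them before the start, and Drc1 held 1, just past the start. The letters were chosen after these sequences had been read, and a match is a description of the letters only. RefSeq entries were found for 5 of the 8 genes, and those of Galnt11 and Lgi2 held no match.

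Of the other genes of motile cilia on a list of 38, 17 were tested with 18 probe sets, of which 0 passed in limma in C57 and 0 in 129. At an unadjusted p under 0.05 there were 1 and 3, where 5.63% of all probe sets passed in C57 and 2.19% in 129. Their median difference was 0.08 in C57 and -0.01 in 129, beside 0.01 and 0.00 over all probe sets tested. The largest C57 difference on the list was that of Cfap54, 0.27 (SE 0.16, limma adjusted p = 0.943). Ependymal cells are the ciliated cells of the brain, and of their 12 markers 7 were tested, with 5 higher and 2 lower in C57 KO. Foxj1, Dynlrb2, Enkur, Mlf1 and Tmem212 were not among the tested genes. The summed log2 signal of the 7 overlapped between all groups, from 7.20 to 7.47 in C57 WT, 7.21 to 7.55 in C57 KO, 7.15 to 7.52 in 129 WT and 7.30 to 7.54 in 129 KO. Choroid plexus markers varied far more among arrays, from 7.24 to 13.05 in C57 WT and from 7.28 to 9.89 in C57 KO, with 1 of 6 tested genes higher and 5 lower in KO, and their part in the Drc1 and Cfap69 values was not tested.

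Galnt11, which acts in the Golgi, and Cox18, which acts in mitochondria, were both higher in C57 KO. Galnt11 (1424748_at) ran from 6.45 through 6.62 to 6.83 in C57 WT and from 6.72 through 6.98 to 7.10 in C57 KO, where 7 of the 9 KO arrays lay above every WT array. In 129 it ran from 6.78 through 6.97 to 7.04 in WT and from 6.67 through 6.93 to 7.39 in KO. Its C57 difference was 0.33 (SE 0.07), 1.26-fold, from 6.63 ± 0.12 to 6.96 ± 0.13 (SD, n = 9 and 9). The C57 KO mean of 6.96 stood beside 6.95 ± 0.08 (SD, 9 arrays) for 129 WT and 6.96 ± 0.20 (SD, 10 arrays) for 129 KO, whose difference was 0.01 (95% confidence interval -0.13 to 0.14, limma adjusted p = 1). A second Galnt11 probe set (1432840_at) had group means from 2.46 to 2.56, all under the filter.

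Cox18 (1415710_at) ran from 6.42 through 6.60 to 6.99 in C57 WT and from 6.67 through 7.05 to 7.39 in C57 KO. It ran from 7.04 through 7.22 to 7.37 in 129 WT and from 6.94 through 7.29 to 7.55 in 129 KO. This was a graded order, with C57 KO between C57 WT and both 129 groups, and 5 of the 9 C57 KO arrays above every C57 WT array. The C57 difference was 0.39 (SE 0.08), 1.31-fold. 129 WT lay 0.20 above C57 KO (95% confidence interval 0.04 to 0.37) and 129 KO lay 0.28 above it (0.12 to 0.44), whereas 129 KO and 129 WT differed by 0.08 (95% confidence interval -0.08 to 0.24, limma adjusted p = 1).

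Among other genes of these pathways, 13 of 20 listed in O-glycosylation by GalNAc transferases were tested with 24 probe sets, and 0 passed in limma in C57 or 129. At an unadjusted p under 0.05 there were 3 in C57 and 2 in 129, where 5.63% and 2.19% of all probe sets passed. The largest C57 difference was that of Galnt9, also on chromosome 5, at 0.28 (SE 0.08, limma adjusted p = 0.438). Its C57 WT mean was 6.47 ± 0.27 and its C57 KO mean 6.75 ± 0.16 (SD, 9 arrays each). Of 20 genes that assemble cytochrome oxidase 17 were tested with 23 probe sets, and 0 passed in either strain, with 0 at an unadjusted p under 0.05. Coa6, an assembly factor that handles copper, had the largest C57 difference there, -0.19 (SE 0.11, limma adjusted p = 0.937). The alpha/beta hydrolase genes other than Abhd1, 17 of 18 tested with 34 probe sets, likewise had 0 calls in limma and 2 probe sets in C57 and 1 in 129 at an unadjusted p under 0.05. Abhd14a had their largest C57 difference, 0.17 (SE 0.11, limma adjusted p = 0.965).

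Lgi2 and Sod3 lie near each other, with a single tested gene (Ccdc149) between them, and both were lower in C57 KO. Lgi2 belongs to the LGI family, whose secreted proteins bind ADAM22 and related receptors at synapses. On its brightest probe set (1440147_at) it ran from 8.08 through 8.31 to 8.52 in C57 WT and from 7.33 through 7.60 to 8.34 in C57 KO. It ran from 7.41 through 7.64 to 7.98 in 129 WT and from 7.20 through 7.56 to 7.90 in 129 KO. The C57 WT arrays exceeded every 129 array, and all C57 KO arrays but 1 lay below every C57 WT array. The C57 mean fell from 8.30 ± 0.15 to 7.69 ± 0.32 (SD, n = 9 and 9), a difference of -0.61 (SE 0.11), and 129 KO differed from 129 WT by -0.07 (95% confidence interval -0.28 to 0.13, limma adjusted p = 1).

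The other Lgi2 probe set (1457040_at) did not follow this pattern. It ran from 5.02 through 5.34 to 5.98 in C57 WT, from 5.25 through 5.58 to 5.92 in C57 KO, from 5.40 through 5.60 to 5.65 in 129 WT and from 5.38 through 5.75 to 6.19 in 129 KO. All 4 groups overlapped, and the C57 difference was 0.18 (SE 0.11), opposite in sign to the brighter probe set. The 129 difference was 0.16 (95% confidence interval -0.05 to 0.37, limma adjusted p = 1). The partners of Lgi2, 6 LGI and ADAM genes with 13 probe sets, had 0 calls in limma in either strain. At an unadjusted p under 0.05, passed by 5.63% of all probe sets in C57 and 2.19% in 129, these partners had 0 in C57 and 1 in 129. Adam22 had their largest C57 difference, -0.16 (SE 0.09, limma adjusted p = 0.928).

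Array number, the number in each array's title, was split into a lower and a higher set within each group. Of the 12 probe sets, only Lgi2 1440147_at was called for a shift by array number averaged over the groups. Higher-numbered minus lower-numbered arrays gave -0.23 (SE 0.06, limma adjusted p = 0.0126), in a comparison that called 2901 of 23321 probe sets (12.4%). The labels do not say what the numbers stand for. The Lgi2 C57 difference was -0.55 among the lower-numbered and -0.74 among the higher-numbered arrays. A shift that goes opposite ways in different groups can cancel in this comparison. Abhd1 was not called there, and its C57 difference was 1.67 among the lower-numbered and 1.09 among the higher-numbered arrays.

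Sod3 sits close to the filter, so its values are signals near background. The brighter probe set (1417633_at) ran from 3.64 through 3.85 to 4.32 in C57 WT and from 3.06 through 3.44 to 3.80 in C57 KO. It ran from 3.04 through 3.16 to 3.39 in 129 WT and from 2.92 through 3.27 to 3.60 in 129 KO. It passed the filter only through C57 WT, the group where it was high, and the 129 arrays lay below every C57 WT array. The C57 difference in signal was -0.47 (SE 0.09), and 129 WT minus C57 KO was -0.22 (95% confidence interval -0.41 to -0.03). In 129, KO differed by 0.08 (95% confidence interval -0.10 to 0.27, limma adjusted p = 1). The second probe set (1417634_at), under the filter, had a C57 WT mean of 3.43 and means from 3.18 to 3.25 in the other groups, with a C57 difference of -0.21 (SE 0.08). Of 16 other genes that remove superoxide and peroxide 13 were tested with 28 probe sets, and 0 passed in limma in C57 or 129. At an unadjusted p under 0.05, passed by 5.63% of all probe sets in C57 and 2.19% in 129, there were 0 for these genes. Their largest C57 difference, for Prdx2, was -0.36 (SE 0.29, limma adjusted p = 0.999).

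Ppp1cb gave opposite readings on its own probe sets. It encodes the beta catalytic subunit of protein phosphatase 1, which works with regulatory subunits such as those of myosin phosphatase. The brightest probe set (1426205_at) ran from 9.69 through 9.95 to 10.31 in C57 WT and from 9.37 through 9.50 to 9.67 in C57 KO, with no overlap. It ran from 8.94 through 9.52 to 9.71 in 129 WT and from 9.28 through 9.46 to 9.71 in 129 KO. The C57 difference was -0.42 (SE 0.09), and all 9 C57 KO arrays lay within the 129 range. In 129 the difference was 0.06 (95% confidence interval -0.12 to 0.23, limma adjusted p = 1).

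On 1431328_at the sign was turned. This probe set ran from 5.73 through 6.12 to 6.66 in C57 WT and from 6.70 through 6.91 to 6.98 in C57 KO, again with no overlap. It ran from 6.67 through 6.92 to 7.17 in 129 WT and from 6.61 through 6.83 to 7.16 in 129 KO. C57 KO was higher by 0.74 (SE 0.09), 1.68-fold, while 129 KO differed by -0.07 (95% confidence interval -0.24 to 0.11, limma adjusted p = 1). The remaining 2 probe sets carry the suffix that Affymetrix gives to probes that can also bind other transcripts. On 1433540_x_at the group means lay between 9.29 and 9.35 and on 1456462_x_at between 6.20 and 6.28, with C57 differences of -0.06 (SE 0.07) and 0.00 (SE 0.07). A single direction for Ppp1cb transcript therefore cannot be given from these probe sets, and the mean over them differed by 0.07.

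**Figure D2:**
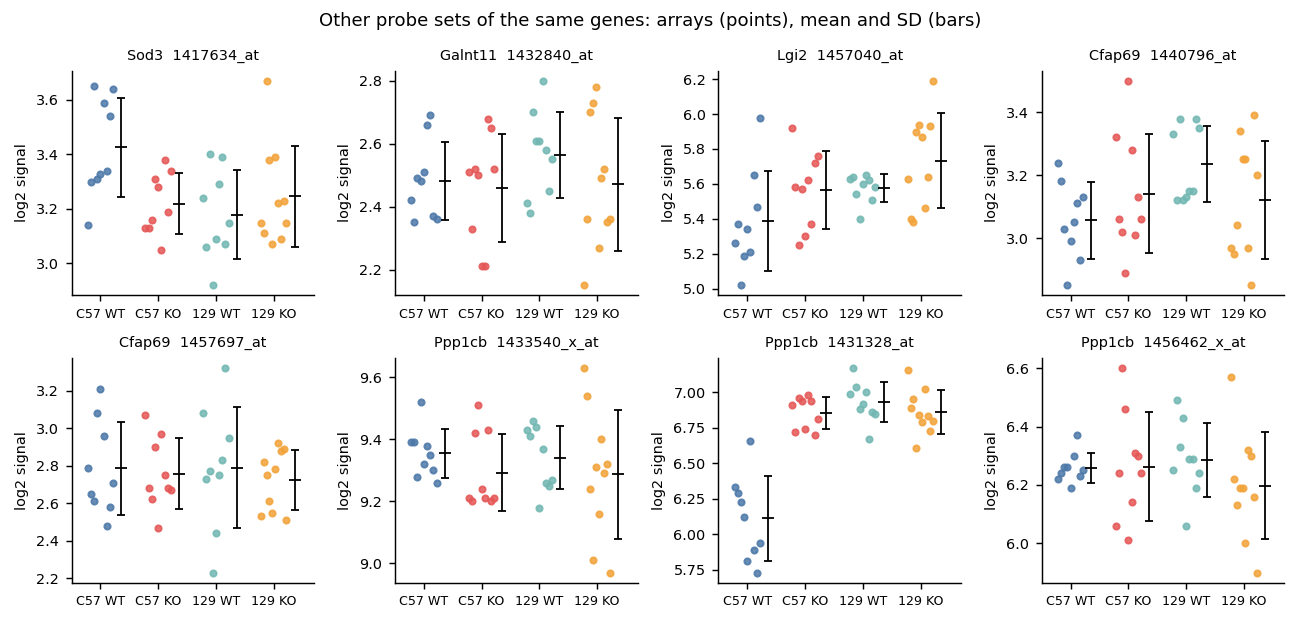
Log2 signal of the 8 other probe sets of these genes, 1 point per array in array number order within each group, with the group mean and SD as bars. Ppp1cb on 1431328_at separates C57 WT (5.73 to 6.66) from C57 KO (6.70 to 6.98), while the groups overlap on the other 7.

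The stretch before the Ppp1cb start is shown because Ppp1cb, which has no part in the axoneme list, held both motifs searched, again in the C57BL/6J reference of RefSeq (GRCm38.p6). Capitals mark TAGCAAC and a longer form, GTTNC followed after 2 to 4 bases by GNAAC, which reads the same on both strands.
Ppp1cb (chr5:32458720-32458969, plus strand): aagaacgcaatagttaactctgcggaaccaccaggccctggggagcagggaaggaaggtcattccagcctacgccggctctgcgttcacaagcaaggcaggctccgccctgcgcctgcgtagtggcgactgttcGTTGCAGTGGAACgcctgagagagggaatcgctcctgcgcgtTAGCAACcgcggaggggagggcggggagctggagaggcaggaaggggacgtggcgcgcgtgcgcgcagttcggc
The longer form was found in 2.3% of the 32851 entries, Ppp1cb and Drc1 included, and in Drc1 it lay past the start and overlapped its TAGCAAC. These matches do not show that a factor binds there.

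Other genes of protein phosphatase 1, 20 of 21 tested with 39 probe sets, had 0 calls in limma in C57 and 0 in 129, with 6 and 0 at an unadjusted p under 0.05, where 5.63% and 2.19% of all probe sets passed. Their median difference was -0.03 in C57 and 0.00 in 129. The largest C57 difference was that of Ppp1r1b, which encodes the inhibitor DARPP-32, at -0.37 (SE 0.15, limma adjusted p = 0.781). Its C57 WT mean was 9.46 ± 0.33 and its C57 KO mean 9.09 ± 0.40 (SD, 9 arrays each). Ppp1r1b is also one of the striatum markers that were lower in C57 KO. Over all 7 lists, 0 of 179 probe sets passed in C57 and 0 in 129, against 0.0858% and 0.00429% of all probe sets. At shares this low a count of 0 says little about the lists.

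Among the 12 tested probe sets the median absolute difference was 0.44 for KO against WT in C57, which reflects the choice of the genes, and 0.07 for KO against WT in 129, beside 0.05 and 0.05 over all 23321 probe sets. For all 12 the 95% interval in 129 included 0 and stayed within 0.37 of it. The C57 differences were selected on, and selection tends to enlarge them.

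Between strains, 129 WT minus C57 WT had a median absolute value of 0.56 over the 12 (0.06 over all probe sets), and 129 WT minus C57 KO had 0.07 (0.06 over all). The ranges of 129 WT and C57 WT did not overlap for 5 of the 12, against 0.416% of all probe sets, and those of 129 WT and C57 KO did not overlap for 0 of the 12, against 0.382%. For 129 KO the counts were 3 of 12 against C57 WT (0.304% of all) and 0 of 12 against C57 KO (0.227% of all). Both counts against C57 WT, the 5 and the 3, include Sod3 on 1417633_at, which passed the filter only through C57 WT. For C57 KO and C57 WT the count without overlap was 4 of 12, against 0.0472%. Because these comparisons share the C57 WT or C57 KO arrays with the one that chose the genes, they are given as values without a test.

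**Figure D3:**
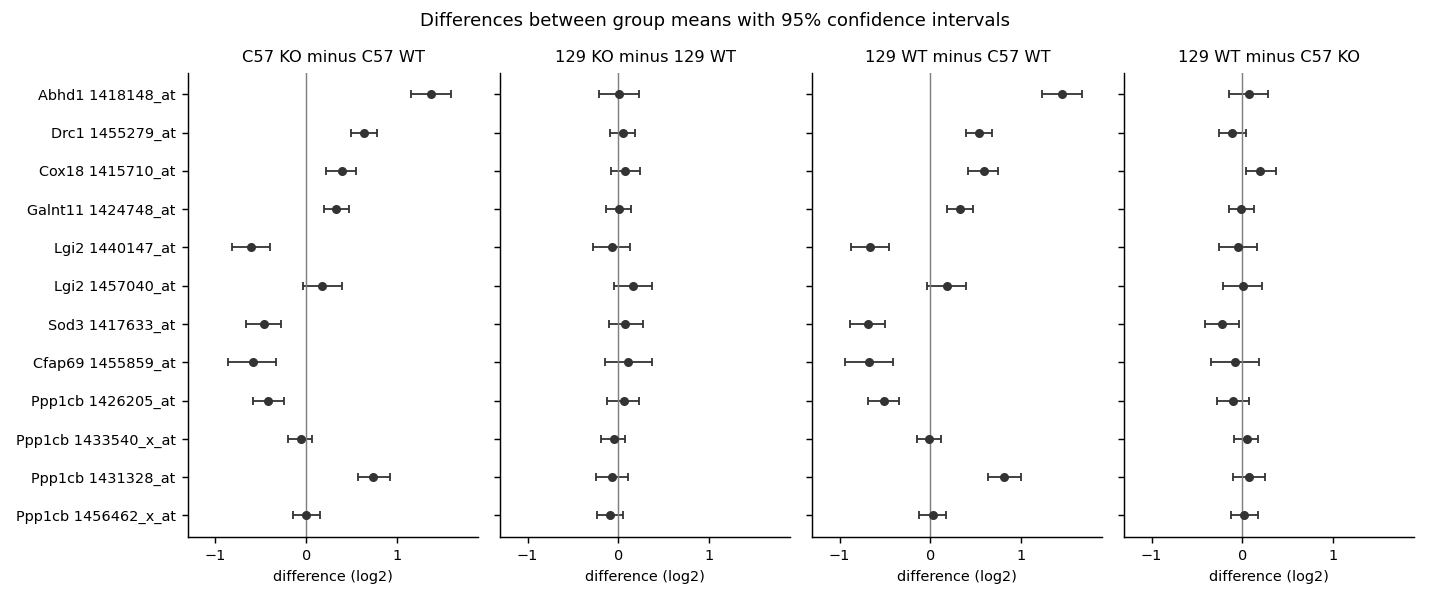
Differences in log2 signal with 95% confidence intervals from limma for the 12 tested probe sets, for C57 KO minus C57 WT, 129 KO minus 129 WT, 129 WT minus C57 WT and 129 WT minus C57 KO. In the second panel the intervals of all 12 include 0, and in the fourth only Cox18 and Sod3 have intervals that leave out 0.

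On each of 9 probe sets some C57 WT array must be nearest to the KO side, so the ranks below are only a description. Array 34 was the C57 WT array nearest to the KO side on 4 of 9 probe sets (Abhd1, Galnt11, Cfap69 and Ppp1cb on 1431328_at) and first or second on 6 of 9. There it read 5.37 for Abhd1, 6.83 for Galnt11, 3.92 for Cfap69 and 6.66 for Ppp1cb. It was not near the KO side for Cox18 (6.52, seventh of 9) or for Lgi2 (8.33, sixth of 9). Array 42 was nearest on 3 of 9. Among the C57 KO arrays, 5 and 9 were each first or second toward the WT side on 4 of 9. Without array 34 the C57 differences were 1.49 for Abhd1, 0.36 for Galnt11, -0.70 for Cfap69 and 0.81 for Ppp1cb on 1431328_at.

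Along the chromosome the genes were scattered among others, most of which differed little. In RefSeq order Cfap69 lies 584 annotated genes before Wfs1, Galnt11 290, Drc1 193, Abhd1 169 and Ppp1cb 120 before it, and Sod3 lies 144, Lgi2 147 and Cox18 571 after it, out of 2747 on the chromosome. The 5 tested genes on each side of each gene made 71 neighbours, whose C57 differences ran from -0.33 to 0.49 with a median absolute value of 0.06, close to the 0.05 over 13078 genes. Of the 71, 1 was called in C57, 4831440E17Rik, a noncoding gene near Galnt11 that was 0.49 higher (SE 0.10), and 0 in 129.

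Beside Abhd1, Cgref1 differed by -0.06 (SE 0.07) and Preb by 0.08 (SE 0.04) in C57. Beside Drc1, Selenoi differed by 0.13 (SE 0.07) and Otof by 0.20 (SE 0.07). Beside Lgi2 and Sod3, Sepsecs differed by 0.04 (SE 0.07), Ccdc149 by -0.07 (SE 0.04) and 9230114K14Rik by -0.12 (SE 0.13). Each of these was smaller than the difference of the member beside it. The members were chosen by that difference and the neighbours were not, so this is a description only. Those next to Ppp1cb were Plb1 at 0.09 (SE 0.06) and Yes1 at 0.14 (SE 0.08), and those next to Cfap69 were Gtpbp10 at 0.06 (SE 0.07) and Steap2 at -0.03 (SE 0.07). Next to Cox18, Adamts3 differed by -0.27 (SE 0.09) and Ankrd17 by -0.07 (SE 0.07), and next to Galnt11, Kmt2c differed by -0.03 (SE 0.06) and 1500035N22Rik by 0.36 (SE 0.08), about the size of Galnt11 itself (0.33).

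**Figure D4:**
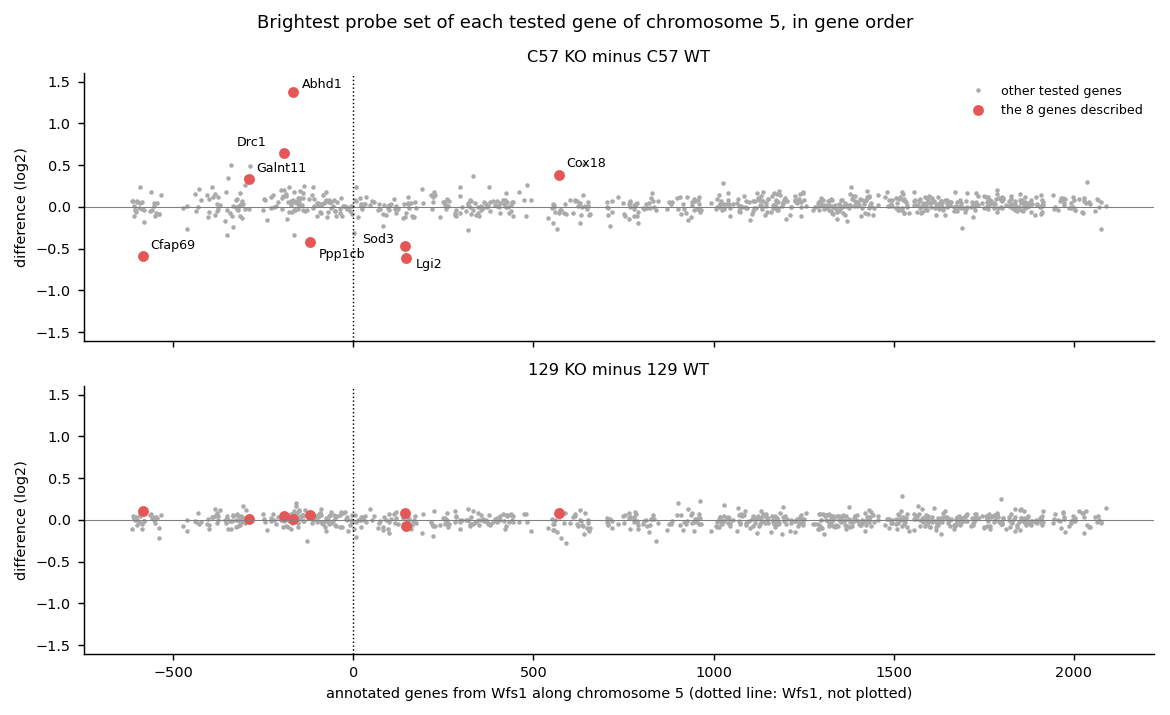
Difference in log2 signal of the brightest probe set of each tested chromosome 5 gene other than Wfs1, placed by the number of annotated genes from Wfs1, for C57 (upper) and 129 (lower). The 8 genes, chosen by the C57 difference, run from -0.61 for Lgi2 to 1.38 for Abhd1 in C57 and from -0.07 to 0.11 in 129, and some other genes, such as Stbd1 at 0.51, differ in C57 by as much as several of them.

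The limit behind the choice can be read from the fit with 1 probe set per gene. Just inside it were Cfap69 (-0.59, SE 0.13) and 1500035N22Rik (0.36, SE 0.08). That gene, 2700038G22Rik (0.50, SE 0.10) and 4831440E17Rik (0.49, SE 0.10) lay inside the limit and are not among the 8. Just outside were Prkag2, a regulatory subunit of the AMP-activated kinase (0.26, SE 0.06), and Jakmip1 (-0.31, SE 0.07).

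The genes most like each member over the 37 arrays were mostly on chromosome 5, except for Cfap69 and Ppp1cb. The chromosome holds 821 of the 13078 tested genes. The members were chosen on this chromosome by their C57 difference, so genes that share that difference rank high here by construction. By Pearson correlation over all arrays, a description that holds the group differences, Abhd1 was most like Drc1 (r = 0.84), 1500035N22Rik (0.82) and 4831440E17Rik (0.81). Drc1 was most like Abhd1 (0.84), Galnt11 (0.74) and Prkag2 (0.74), and Galnt11 was most like Abhd1 (0.78), 1500035N22Rik (0.77) and Drc1 (0.74). Sod3 and Lgi2 were each most like the other (0.78), with Gfra1 (0.72) and Jakmip1 (0.70) next for Sod3 and Jakmip1 (0.76) and Gltp (0.69) next for Lgi2. Cox18 was most like Stbd1 (0.81), Vps33a (0.78) and Fam204a (0.76), where the Stbd1 mean lay under the filter in both C57 groups. Cfap69 was most like Lhfpl3 (0.70), 2610044O15Rik8 (0.65) and Arhgap31 (0.65), and Ppp1cb was most like Cdk17 (0.69), Gfra1 (0.66) and Naaa (0.63). With group means removed, the correlation of Abhd1 with Drc1 was 0.20 and that of Sod3 with Lgi2 was 0.45, and over the 36 pairs of 9 probe sets it ran from -0.43 to 0.45 with a median of 0.03.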

How the data were processed

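The samples were temporal lobe RNA on 37 Affymetrix mouse expression arrays in 4 groups taken from the titles. The deposited values were log2 probe set signals, summarized and normalized between arrays by the authors, and the submitters' processing notes name MAS5 and GCRMA without version or role. They were used as deposited. Of 45101 probe sets, 64 were controls, 34945 had 1 gene symbol, 932 several and 9160 none, per a platform annotation, and 34741 of the 34945 matched a RefSeq gene ID. Probe sets with 1 symbol were tested if any group mean was at or above the 40th percentile (3.6), which left 23321. limma 3.58.1 in R 4.3.3 was fitted to all arrays with 1 mean per group, with 2-sided Benjamini-Hochberg adjusted p-values over all 23321 and calls at under 0.05. The number of arrays limits the precision. The method was tested on simulated data. Named genes were the members, the nearest tested gene on each side and any called gene among 5, the 3 most correlated genes, and per pathway list the largest C57 difference. Members, lists and array sets were chosen with earlier results of these data known. Alternatives were other filters, normalizations, probe set summaries, eBayes settings, array weights, array sets, an actin covariate and each array left out. Other software was Python 3.11.15, NumPy 2.4.6, pandas 2.3.3 and matplotlib 3.10.9.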

Additional observations from a re-analysis of the deposited data

Results flagged for a closer look

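Within groups, the highest or lowest array stood apart from the rest in 6 of 68 combinations of probe set and group, Wfs1 included, where chance gives about 1 in 20. For Abhd1, C57 WT array 34 read 5.37 with the next array at 4.71, and 129 KO array 59 read 6.49 with the next at 6.04. For Cfap69 on 1455859_at, 129 WT array 73 read 3.78 with the next at 4.09, and this was the array with the highest actin 3' to 5' difference, 2.76. For Sod3 on 1417634_at, 129 KO array 52 read 3.67 with the next at 3.39. For Ppp1cb on 1433540_x_at, C57 WT array 29 read 9.52 with the next at 9.39. For Wfs1, C57 WT array 42 read 9.73 with the next at 9.38.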

How the results depend on the processing

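In 129, 0 of the tested probe sets of these genes were called under any of the 14 alternatives or with any array left out, and 1 probe set was called among all those tested, except 2 without 129 KO array 54. The C57 count of 20 was 25 without a filter, 25 with the array set as a block, 26 with array weights, 13 with the filter at the 60th percentile, 13 with the mean of probe sets per gene, 7 with the C57 groups alone, 10 in the lower-numbered and 8 in the higher-numbered arrays. With 1 array left out it ran from 11 to 23, with 11 without C57 KO array 3, 13 without C57 WT array 25 and 12 without C57 WT array 42. The members' C57 count of 8 was 9 with the array set as a block, 4 with the C57 groups alone, 3 in the lower-numbered and 4 in the higher-numbered arrays, and 4 to 8 with 1 array left out. It was 5 without C57 KO arrays 2, 3, 7 or 17 or C57 WT arrays 37 or 40, and 4 without C57 WT arrays 25 or 33. Abhd1, Drc1, Lgi2 and Ppp1cb on 1431328_at were under 0.05 with each of the 37 arrays left out. With the C57 groups alone, Lgi2, Cox18, Sod3 and Galnt11 were no longer called. Lgi2 was also not called with the mean of probe sets per gene. With the mean of probe sets per gene, the difference Ppp1cb 1426205_at, KO minus WT in C57, turned to 0.0678, and that of Lgi2 moved to -0.21. The Abhd1 difference was 1.67 in lower-numbered and 1.09 in higher-numbered arrays. No paired analysis was possible because the groups share no replicate numbers.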

Other observations

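Of the 20 probe sets called in C57, 16 lie on chromosome 5, in 14 genes, which include Wfs1 and the members other than Cfap69. Chromosome 5 holds 1503 of the 23321 probe sets tested. Of the 16, 8 are member probe sets, which the choice of the genes fixes. Jakmip1, which encodes a microtubule-binding protein of neurons and lies near Wfs1, was lower in C57 KO, with a difference of -1.85 (SE 0.10) on 1433815_at. Its mean (SD) was 6.19 (0.17) over 9 C57 WT arrays, 4.34 (0.17) over 9 C57 KO arrays, 4.27 (0.26) over 9 129 WT arrays and 4.31 (0.25) over 10 129 KO arrays. This was larger than the difference of any member, but on its brightest probe set Jakmip1 differed by -0.31 (SE 0.07). Clock, a core factor of the circadian clock, was higher by 0.40 (SE 0.06) on 1435775_at, from 7.19 to 7.59. The 129 means were 7.70 in WT and 7.72 in KO. On its brightest probe set Clock differed by 0.04 in C57. Tomm7, a small subunit of the mitochondrial import pore, was higher by 0.60 (SE 0.10) on 1428216_s_at, from 4.42 to 5.02. The 129 means were 5.06 in WT and 5.05 in KO. Its brightest probe set differed by -0.07 in C57. Supt7l, a subunit of the SAGA type coactivator, was higher by 0.60 (SE 0.12) on 1433374_at, from 2.90 to 3.49. The 129 means were 3.80 in WT and 3.52 in KO, so this probe set passed the filter only through 129 WT. The brightest Supt7l probe set differed by -0.03 in C57. For Clock, Tomm7 and Supt7l the difference on the called probe set was therefore not seen at that size on the brightest one.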
